A study of Mus musculus with 4 samples.

Results

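The genes described here are 9 members of the YAP and TEAD pathway in mouse embryonic fibroblasts (MEFs): the coactivator genes Yap1 and Wwtr1, the transcription factor gene Tead1, the target genes Ankrd1, Ctgf, Cyr61 and Axl, and the target genes Amotl2 and Lats2, whose products also act back on the pathway. They were taken by gene symbol from a table of RefSeq transcripts, by summing the counts of all transcripts of a symbol, and are 9 of 36846 symbols in that table, of which 14760 were tested. All 9 were in the table and all 9 passed the filter on low counts. The fibroblasts were of 2 genotypes, Dnmt3l-KO (2 libraries) and wild type (WT, 2 libraries). All lines were of the C57BL/6 strain, were made from embryos of day 13.5 to 14.5 of crosses between Dnmt3l heterozygotes, and were sequenced at passage 4 after culture in medium with 10% serum. Whether replicate libraries of 1 genotype trace back to different embryos or lines is not stated in the labels, so a p-value here reflects differences among the 4 libraries only, and these may be technical. The study asked which genes differ between donor fibroblasts for nuclear transfer that lack Dnmt3l, the cofactor of de novo DNA methyltransferases, and those that carry it.

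The Hippo pathway is a kinase cascade that holds back cell growth and senses cell contact and mechanical tension. The kinases encoded by Stk3 and Stk4 activate the Lats1 and Lats2 kinases, which phosphorylate YAP, the product of Yap1, and TAZ, the product of Wwtr1, and so keep them out of the nucleus. Unphosphorylated YAP and TAZ enter the nucleus and bind the TEAD factors, which recognise DNA but activate little by themselves. In cultured fibroblasts YAP and TAZ are known to be active in spread cells on stiff substrates and less so in dense cultures, and Ctgf, Cyr61 and Ankrd1 are their most used readouts.

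The recognition sequence of TEAD factors, GGAATG or CATTCC on the other strand, is what joins the coactivators to their targets, so the members' promoters were searched for it. RefSeq promoters of the GRCm38.p6 build, from 250 bases before to 50 bases after a gene's start, were matched for 7 of the 9 genes, Ankrd1, Cyr61, Amotl2, Axl, Yap1, Wwtr1 and Lats2, with 9 annotated starts in all. Ctgf and Tead1 had no promoter in the set used, so theirs were not searched. The motif stood in 8 of the 9 promoters, against 14.7% of all 32851 promoters of the same length. It stood in at least 1 promoter of each of the 7 genes, against 16.6% of all 27025 genes. In the 250 bases upstream alone it stood in 7 of the 9 promoters, against 12.6% of all promoters. The promoter counts hold the same Wwtr1 site under both of that gene's starts. The sites are shown in 30-base windows because they are the element that the 7 searched genes have in common, with the motif in capitals.
Ankrd1 distal site, chr19:36120037-36120066, minus strand: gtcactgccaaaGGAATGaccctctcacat
Ankrd1 proximal site, chr19:36119950-36119979, minus strand: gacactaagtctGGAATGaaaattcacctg
Cyr61, chr3:145650071-145650100, minus strand: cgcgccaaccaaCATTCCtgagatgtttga
Axl, chr7:25788949-25788978, minus strand: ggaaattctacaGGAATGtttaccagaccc
Amotl2, chr9:102717727-102717756, plus strand: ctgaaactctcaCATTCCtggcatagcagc
Lats2, chr14:57746102-57746131, minus strand: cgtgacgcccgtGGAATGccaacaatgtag
Yap1, chr9:8004720-8004749, minus strand: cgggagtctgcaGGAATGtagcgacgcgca
Wwtr1, chr3:57576029-57576058, minus strand: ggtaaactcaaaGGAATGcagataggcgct
With the annotated start counted as 0, the first base of the motif lay at -210 and -123 in Ankrd1, -103 in Cyr61, -233 in Axl, -65 in Amotl2, 4 in Lats2, -141 in Yap1, and -136 or -170 in Wwtr1, which has a pair of annotated starts. Ankrd1 was the only one of the 7 genes with more than 1 such site.

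The longer upstream sequences of Ankrd1 and Cyr61 are shown because these genes are pathway readouts of unlike spread between the libraries, with the TEAD motif again in capitals. Any link between these sites and that spread was not tested.
Ankrd1, chr19:36119845-36120094, minus strand: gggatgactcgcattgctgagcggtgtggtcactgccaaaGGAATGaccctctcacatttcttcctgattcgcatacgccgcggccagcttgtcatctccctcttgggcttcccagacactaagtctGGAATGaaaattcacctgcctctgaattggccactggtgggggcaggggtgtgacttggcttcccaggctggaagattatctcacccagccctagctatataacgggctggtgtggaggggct
Cyr61, chr3:145649986-145650235, minus strand: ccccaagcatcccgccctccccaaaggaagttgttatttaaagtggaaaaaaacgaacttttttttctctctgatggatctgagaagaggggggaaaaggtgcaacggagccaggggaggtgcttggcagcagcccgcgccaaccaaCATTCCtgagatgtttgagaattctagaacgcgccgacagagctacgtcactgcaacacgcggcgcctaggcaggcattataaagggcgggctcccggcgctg
The AP-1 motif TGANTCA, searched on both strands, was in 0 of the 9 members' promoters and in 7.81% of all promoters. The CArG box, the site of serum response factor (SRF), was in 0 of 9 and in 1.63% of all promoters. Of 11 promoters of other genes of a YAP and TAZ target signature, 2 held the TEAD motif, and so did 2 of 16 promoters of the Hippo kinase cascade. A match is a run of letters and not a measured binding site, no match says only that these letters are not in this window, and TEAD binding often lies in distant enhancers that these windows do not hold.

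Total counts ranged from 40681328 to 51465395 per library. Dnmt3l had 0 counts in both Dnmt3l-KO libraries and 6 and 1 counts in the WT libraries, around the floor of 3 counts, so it does not check the genotype labels. All 9 fibroblast markers were measured, among them Col1a1, Col1a2, Pdgfra and Thy1. The summed level of macrophage and leukocyte markers was 10.7 and 9.11 CPM (counts relative to the library total, scaled by the TMM method) in Dnmt3l-KO and 9.45 and 7.14 CPM in WT. That of epithelial markers was 7.01 and 4.14 CPM in Dnmt3l-KO and 9.26 and 6.64 CPM in WT. Most of it came from Krt18, with 5.45 and 3.59 CPM in Dnmt3l-KO and 7.35 and 5.56 CPM in WT, while Krt5 and Krt14 were at 0 counts in all libraries. Skeletal muscle markers, most of them Des, came to 27.2 and 16.2 CPM in Dnmt3l-KO and 17.0 and 16.9 CPM in WT, with Pax7 at 0 counts. Neural markers, Nes the highest of them, came to 156 and 128 CPM in Dnmt3l-KO and 164 and 127 CPM in WT.

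By level per length the 9 genes fell into an upper and a lower tier. In FPKM, as deposited and summed over the transcripts of a gene, Ctgf, a secreted matricellular protein that promotes matrix production, ranged over the 4 libraries from 245 to 459.5 FPKM. Cyr61, a related matricellular protein that binds integrins, ranged from 206 to 289.6 FPKM, and Axl, a receptor tyrosine kinase for Gas6, from 174 to 267 FPKM. These 3 overlapped in order, Ctgf with Cyr61 and Cyr61 with Axl. Ctgf ranked between 152 and 248 among all symbols by FPKM. The scaffold gene Amotl2, with 60.3 to 77.1 FPKM, and Tead1, with 40.2 to 54.8 FPKM, stood apart from their neighbours in the order by mean level. The range of Tead1 did overlap that of Ankrd1, which was lower in mean level and not its neighbour. Yap1 (31.3 to 37.7 FPKM), Wwtr1 (28.6 to 32.4 FPKM), Ankrd1 (15.0 to 50.9 FPKM) and Lats2 (24.4 to 35.7 FPKM) did not separate beyond their spread.

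**Figure D1:**
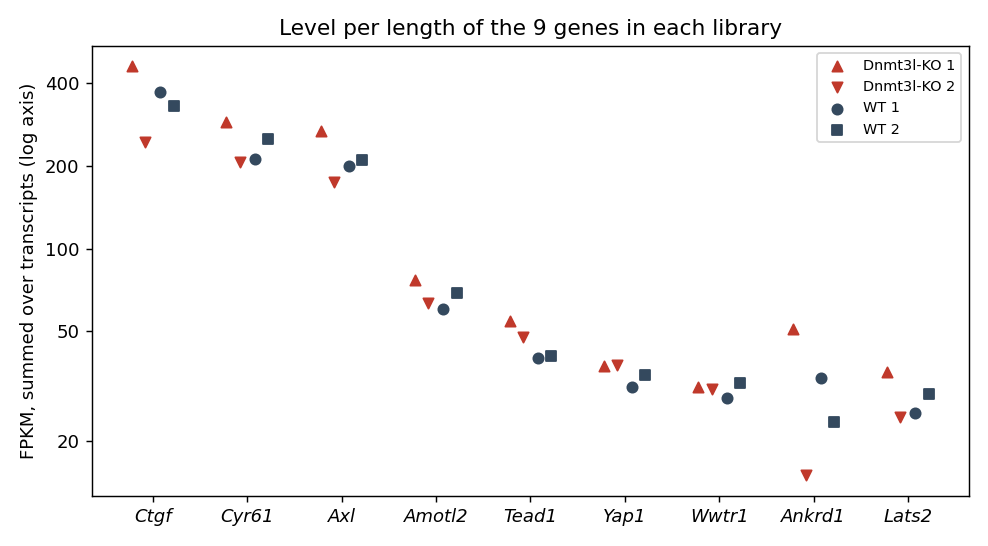
Level per length of the 9 genes in FPKM on a log axis, ordered by mean level, with 1 symbol for each library (red for Dnmt3l-KO, dark blue for WT). Ctgf, Cyr61 and Axl lie above 174 FPKM in all 4 libraries and the other 6 genes at 77.1 FPKM or less, and Ankrd1 has the widest range on the log axis, from 15.0 to 50.9 FPKM.

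No member passed the test between the genotypes. Across all 14760 genes, edgeR's quasi-likelihood test with Benjamini-Hochberg adjustment called 3 genes (0.0203%) at an adjusted p under 0.05, and 0 of the 9 members were among them. At an unadjusted p under 0.05 the share of all genes was 4.15% in edgeR, 2.34% higher and 1.81% lower in Dnmt3l-KO, and 0 of the 9 members reached it in either direction. The adjusted p of each member was 0.999 in edgeR, and DESeq2's Wald test called 0 of the 9 as well (0.166% of all genes it tested). The median log2 fold change of the 9, Dnmt3l-KO minus WT, was 0.07, against 0.01 over all genes tested, with 7 of 9 above 0, against 51.3% of all genes. With 2 libraries in each group, an exact permutation test of a single gene cannot reach p under 0.05, so the fit across all genes was used.

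The coactivators were nearly level between the genotypes. Yap1 (chromosome 9, 7931999 to 8004638, minus strand, GRCm38) had 172 and 166 CPM in Dnmt3l-KO and 152 and 153 CPM in WT. Both Dnmt3l-KO libraries lay above both WT libraries, as in 16.2% of all genes tested. The means were 169 ± 4.45 CPM in Dnmt3l-KO and 153 ± 1.24 CPM in WT (SD, n = 2 each). In edgeR's fit this was 0.15 ± 0.09 (SE) as a log2 fold change, and the 95% interval of the fold ran from 0.947 to 1.30. Wwtr1 (chromosome 3, 57455644 to 57575910, minus strand) had 165 and 156 CPM in Dnmt3l-KO and 158 and 164 CPM in WT. The genotypes overlapped, with means of 160.4 ± 6.72 CPM in Dnmt3l-KO and 161 ± 3.80 CPM in WT. Its log2 fold change was -0.01 ± 0.09 (SE), with a 95% interval of the fold from 0.844 to 1.17, the narrowest of the 9 together with that of Yap1. The ratio of Yap1 to Wwtr1 in FPKM was 1.19 and 1.22 in Dnmt3l-KO and 1.09 and 1.07 in WT. This ratio was above 1 in all 4 libraries and higher in both Dnmt3l-KO libraries, and it was not tested.

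Of the TEAD factors, which carry YAP and TAZ to DNA, Tead1 was the most abundant. Tead1 (chromosome 7, 112679356 to 112906784, plus strand) had 422 and 356 CPM in Dnmt3l-KO and 324 and 311 CPM in WT. Both Dnmt3l-KO libraries again lay above both WT libraries. The means were 389 ± 47.0 CPM in Dnmt3l-KO and 318 ± 9.41 CPM in WT (SD, n = 2 each). The log2 fold change of 0.29 ± 0.12 (SE) had the lowest p of the 9 members, 0.0634 unadjusted in edgeR, and a 95% interval of the fold from 0.984 to 1.53. The value was 0.16 without Dnmt3l-KO replicate 1 and 0.41 without Dnmt3l-KO replicate 2 (edgeR). Tead1 held 57.3% and 53.8% of the summed Tead FPKM in Dnmt3l-KO and 53.5% and 52.7% in WT. Tead2 followed with 29.3% and 31.5% in Dnmt3l-KO and 32.8% and 32.1% in WT, then Tead3 with 8.64% and 11.5% in Dnmt3l-KO and 10.3% and 10.9% in WT. Tead4 was lowest, with 4.73% and 3.15% in Dnmt3l-KO and 3.47% and 4.36% in WT. The order of the 4 was the same in every library.

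The direct targets among the members showed another pattern: the Dnmt3l-KO libraries stood on opposite sides of the WT libraries. Ankrd1 (chromosome 19, 36111965 to 36119844, minus strand), which encodes a nuclear and sarcomeric ankyrin repeat protein induced by stretch, had 99.1 and 28.0 CPM in Dnmt3l-KO and 69.3 and 43.9 CPM in WT. Dnmt3l-KO replicate 1 was the highest and replicate 2 the lowest of the 4 libraries, 3.53-fold apart, while the WT libraries were 1.58-fold apart. The means were 63.55 ± 50.2 CPM in Dnmt3l-KO and 56.6 ± 17.9 CPM in WT (SD, n = 2 each). The log2 fold change of 0.17 ± 0.61 (SE, edgeR) had a 95% interval of the fold from 0.377 to 3.34. It was -1.02 without Dnmt3l-KO replicate 1 and 0.80 without Dnmt3l-KO replicate 2.

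Ctgf (chromosome 10, 24595442 to 24598683, plus strand, listed as Ccn2 in the annotation) had 1226 and 627 CPM in Dnmt3l-KO and 1044 and 846 CPM in WT. The libraries stood in the order of Ankrd1, with the Dnmt3l-KO libraries 1.96-fold and the WT libraries 1.23-fold apart. The means were 926 ± 424 CPM in Dnmt3l-KO and 945 ± 140.45 CPM in WT, and the log2 fold change was -0.03 ± 0.34 (SE, edgeR). Cyr61 (chromosome 3, 145646971 to 145649985, minus strand, listed as Ccn1) had 648 and 442 CPM in Dnmt3l-KO and 500.5 and 541 CPM in WT. Dnmt3l-KO replicate 1 was again highest and replicate 2 lowest, but here WT replicate 2 was above WT replicate 1. The means were 545 ± 146 CPM in Dnmt3l-KO and 521 ± 29.0 CPM in WT, and the log2 fold change was 0.07 ± 0.20 (SE, edgeR). Summed over Ankrd1, Ctgf and Cyr61, the level was 1973 and 1097 CPM in Dnmt3l-KO and 1614 and 1431 CPM in WT. The 95% interval of the fold ran from 0.535 to 1.797 for Ctgf and from 0.727 to 1.505 for Cyr61. These intervals are not limits of detection, and the size of change detectable with this spread was not tested.

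Axl (chromosome 7, 25756500 to 25788924, minus strand) had 1209 and 768 CPM in Dnmt3l-KO and 963 and 924 CPM in WT, so the WT libraries lay close together between the Dnmt3l-KO libraries. The means were 989 ± 312 CPM in Dnmt3l-KO and 943 ± 27.9 CPM in WT (SD, n = 2 each), and the log2 fold change was 0.07 ± 0.23 (SE, edgeR). Lats2 (chromosome 14, 57689662 to 57746212, minus strand), a kinase that inactivates YAP and is itself a YAP target, had 164 and 104 CPM in Dnmt3l-KO and 120.5 and 138 CPM in WT. It showed the same arrangement, with means of 134 ± 42.7 CPM in Dnmt3l-KO and 129 ± 12.1 CPM in WT and a log2 fold change of 0.05 ± 0.24 (SE, edgeR). Amotl2 (chromosome 9, 102717091 to 102733418, plus strand), an angiomotin family scaffold that binds YAP and promotes its phosphorylation, had 359 and 284 CPM in Dnmt3l-KO and 297 and 311 CPM in WT. Its Dnmt3l-KO libraries were 1.27-fold apart, less than those of any other target here. Its log2 fold change was 0.08 ± 0.14 (SE, edgeR).

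**Figure D2:**
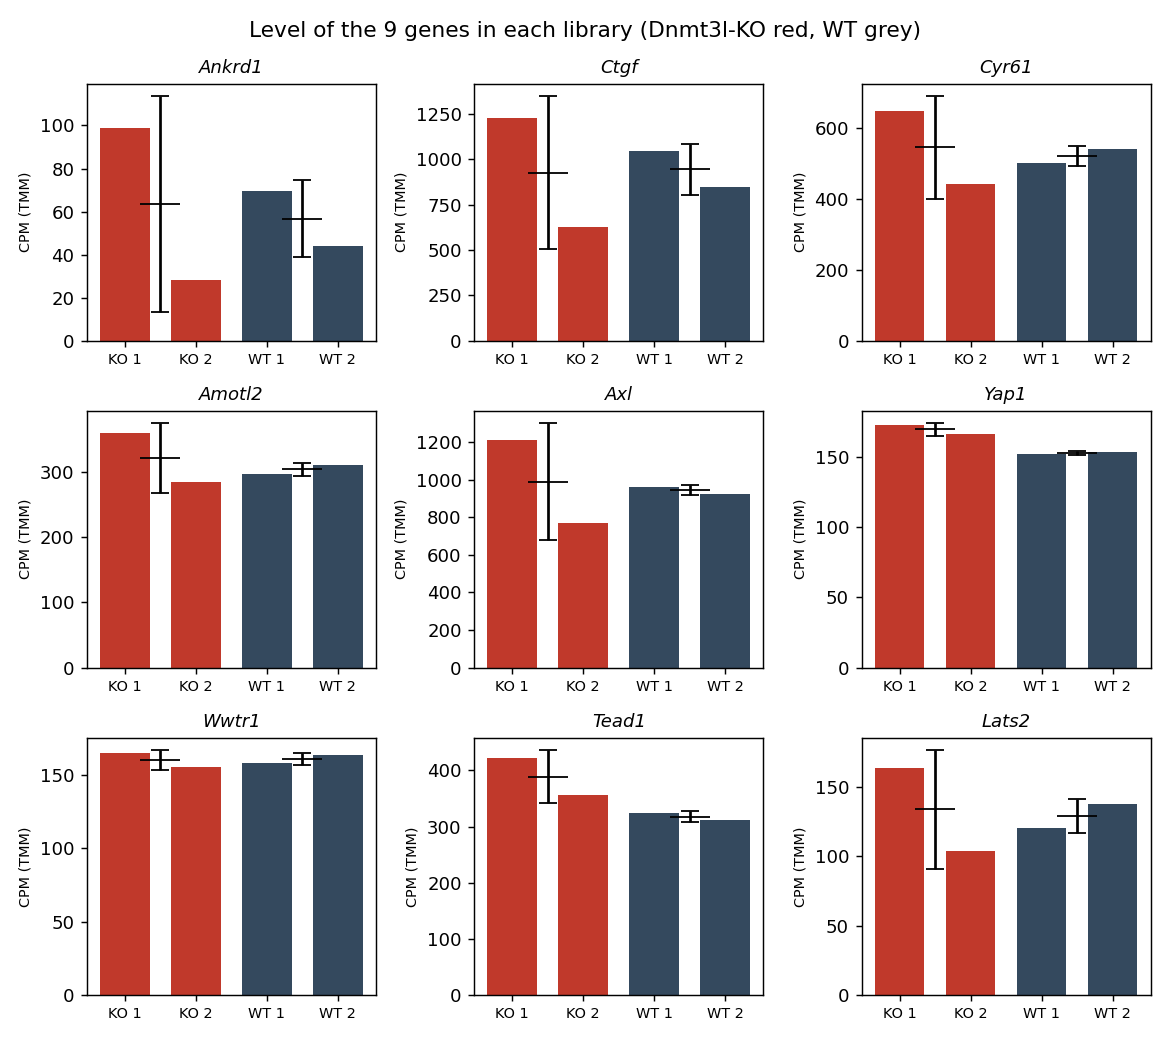
CPM of each of the 9 genes in each library (bars from 0, Dnmt3l-KO in red to the left, WT in dark blue to the right), with the mean and SD of each genotype in black (n = 2 each). The Dnmt3l-KO bars of Ankrd1, Ctgf, Cyr61, Axl and Lats2 lie on either side of both WT bars, while the bars of Yap1 and Wwtr1 are nearly level.

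Ankrd1, Ctgf, Cyr61, Axl and Lats2 had Dnmt3l-KO replicate 1 above and replicate 2 below both WT libraries under all 5 scalings (TMM, and unscaled CPM, RLE, upper quartile and FPKM, which were added after seeing the data). Amotl2 did so in CPM under each scaling but not in FPKM, and Wwtr1, whose values hardly differ, only under TMM and RLE, so the count was 7 of 9 with TMM and 5 of 9 in FPKM. Among all genes tested, 13.6% had that order with TMM and 9.17% in FPKM. Replicate 1 exceeded replicate 2 of Dnmt3l-KO in 9 of 9 members with TMM and in 8 of 9 in FPKM, against 49.3% of all genes with TMM. The opposite order, replicate 2 above and replicate 1 below, was found in 0 of 9 members and in 14.0% of all genes with TMM. Leaving out Dnmt3l-KO replicate 1 turned the log2 fold change negative in Ankrd1, Cyr61 (-0.24), Amotl2 (-0.10), Axl (-0.30) and Lats2 (-0.32), and leaving out Dnmt3l-KO replicate 2 turned those of Ctgf (0.37) and Wwtr1 (0.034) positive. Leaving out WT replicate 1 also turned those of Ctgf (0.13) and Lats2 (-0.041), and leaving out WT replicate 2 those of Ankrd1 (-0.13) and Wwtr1 (0.017). None of the 9 members passed in edgeR in any of these 4 cases. The lowest count of any member in a library was 1172, for which counting error alone is 2.92%.

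With TMM, the libraries of Dnmt3l-KO were further apart on the log2 scale than those of WT in 9 of 9 members, against 65.2% of all genes. Unscaled and in FPKM this held in 7 of 9, against 65.5% and 57.1% of all genes, the exceptions being Yap1 and Wwtr1. With TMM, the median absolute difference between the libraries of a genotype was 0.55 on the log2 scale for the 9 in Dnmt3l-KO and 0.06 in WT, against 0.22 and 0.13 over all genes. A difference between the Dnmt3l-KO libraries as large as that of Ankrd1 was found in 2.01% of all genes, and one as large as that of Ctgf in 8.69%. The share was larger for the other targets, at 16.2% for Lats2, 16.5% for Axl, 20.5% for Cyr61 and 35.1% for Amotl2. For Tead1 it was 46.4%. For Yap1 the same share was 86.2%, and for Wwtr1 78.4%. Yap1 and Wwtr1 were thus close between the same libraries in which the targets among the 9 members stood further apart. This did not extend to the 16 other genes of the target signature, whose median difference between the Dnmt3l-KO libraries was -0.06. With 2 libraries per genotype the spread itself could not be tested.

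**Figure D3:**
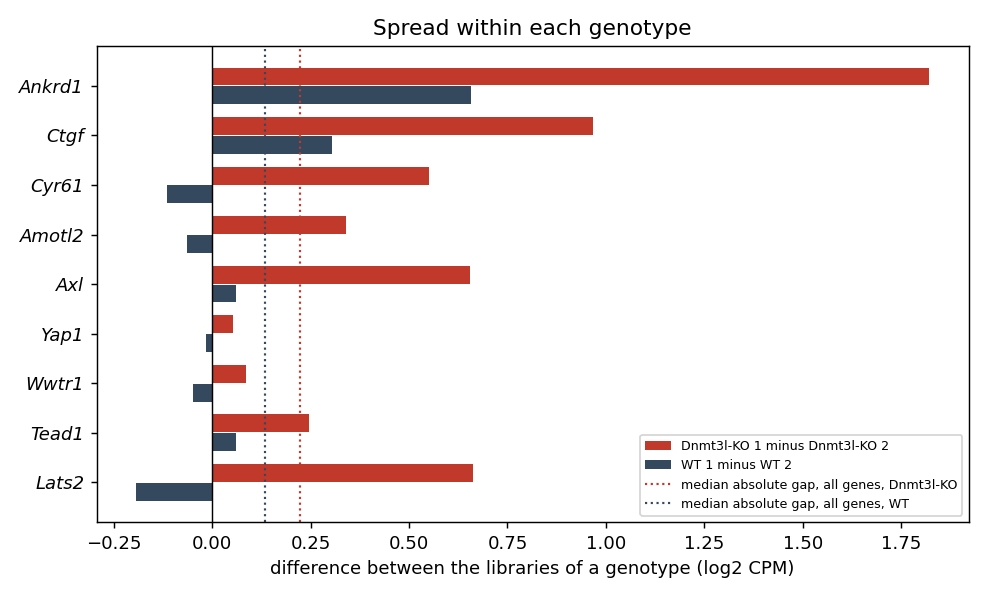
Difference in log2 CPM between replicate 1 and replicate 2 of each gene, in Dnmt3l-KO (red bars) and WT (dark blue bars), with dotted lines at the median absolute difference over all genes tested, 0.22 in Dnmt3l-KO and 0.13 in WT. The red bars of Ankrd1, Ctgf, Cyr61, Axl and Lats2 reach 0.55 or more, and those of Yap1 and Wwtr1 stay below 0.10.

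Other gene groups differed between the same libraries too. Of 14 targets of SRF and its MRTF coactivators, which respond to actin tension and share Ankrd1, Ctgf and Cyr61 as known targets, 9 had Dnmt3l-KO replicate 1 above and replicate 2 below both WT libraries. That order was found in 13.6% of all genes with TMM. The median difference of the SRF targets between the Dnmt3l-KO libraries was 0.32 on the log2 scale. Of 16 mitosis genes 14 had a negative fold change between the genotypes, against 7185 of all 14760 genes tested. The opposite order was found in 8 of the 16, against 14.0% of all genes with TMM. The median difference of the mitosis genes was -0.48 between the Dnmt3l-KO libraries and -0.24 between the WT libraries. Of the 9 fibroblast markers 7 also had the opposite order, with a median difference of -0.88. Their summed level was 10756 and 16062 CPM in Dnmt3l-KO and 12619 and 11207 CPM in WT, most of it from Col1a1, Col1a2 and Vim. In Dnmt3l-KO, Col1a1 (3206 and 5891 CPM) and Col1a2 (1987 and 3853 CPM) were higher in replicate 2. Vim (4667 and 4356 CPM) was higher in replicate 1. The immediate early genes had a median difference of -0.11. Endothelial markers were highest in Dnmt3l-KO replicate 1, at 18.6 and 5.98 CPM in Dnmt3l-KO and 7.50 and 9.49 CPM in WT, most of it from Kdr, while Pecam1, Cdh5 and Tie1 held at most 12 counts in a library and Cldn5 was at 0. The part of these groups in the members' spread was not tested. In bulk samples, fewer cells of a type and less RNA per cell cannot be told apart. In edgeR 0 genes of these groups passed, with 1 SRF target (Tgfb1i1) and 1 immediate early gene (Myc) at an unadjusted p under 0.05, both higher in Dnmt3l-KO, where 2.34% of all genes lay at that level in that direction.

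**Figure D4:**
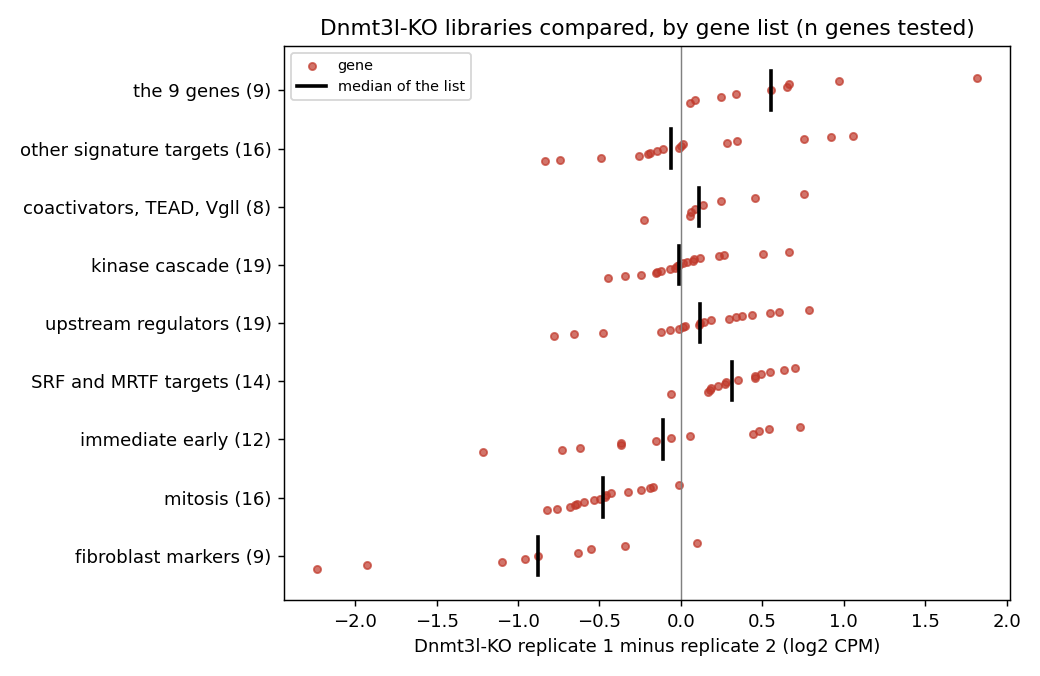
Difference in log2 CPM between Dnmt3l-KO replicate 1 and replicate 2 for each gene (points) and the median (black line) of 9 gene lists, with the number of genes tested in parentheses. The medians of the 9 pathway genes (0.55) and of the SRF and MRTF targets (0.32) lie to the right of 0, and those of mitosis genes (-0.48) and fibroblast markers (-0.88) to the left.

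In the wider pathway, 0 genes passed in edgeR in any list. Of 19 genes of the kinase cascade, 1 was higher and 0 lower at an unadjusted p under 0.05, where 4.15% of all genes lay at that level in either direction. Their median log2 fold change was 0.03. The gene was Mink1, a MAP4K family kinase that can act on the Lats kinases, with 54.2 and 49.9 CPM in Dnmt3l-KO and 42.7 and 44.3 CPM in WT (log2 fold change 0.26 ± 0.10 SE; edgeR, adjusted p = 0.999). Taok2, a kinase upstream in the cascade, had 63.9 and 64.4 CPM in Dnmt3l-KO and 56.7 and 57.1 CPM in WT. Mob1a, the adaptor that activates the Lats kinases, had 195 and 199.8 CPM in Dnmt3l-KO and 227 and 221 CPM in WT. Over the list, 4 of 19 genes had both Dnmt3l-KO libraries above and 1 both below both WT libraries, against 16.2% and 16.5% of all genes. Taok3 (0.14 ± 0.10), Stk38l (-0.15 ± 0.12) and Lats1 (0.08 ± 0.09) had small log2 fold changes (SE, edgeR). Lats1, the paralogue of Lats2, was more even than its paralogue: the ratio of Lats2 to Lats1 in FPKM was 2.61 and 1.63 in Dnmt3l-KO and 2.02 and 2.15 in WT.

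Of 19 upstream regulators and inhibitors of YAP, Amotl2 included, 14 had a positive fold change, against 51.3% of all genes, with a median of 0.10. At an unadjusted p under 0.05 there was 1 of 19, against 4.15% of all genes. It was Mark2, a polarity kinase, with 49.5 and 44.9 CPM in Dnmt3l-KO and 39.5 and 38.1 CPM in WT (log2 fold change 0.28 ± 0.10 SE; edgeR, adjusted p = 0.999). Dchs1, a cadherin that is the ligand of Fat4, had 5.47 and 9.42 CPM in Dnmt3l-KO and 5.12 and 3.95 CPM in WT, a log2 fold change of 0.71 ± 0.32 (SE). Ptpn14, a phosphatase that binds YAP and is in the target list too, had 263 and 261 CPM in Dnmt3l-KO and 218 and 236 CPM in WT. Amotl1, a paralogue of Amotl2, had 225 and 207 CPM in Dnmt3l-KO and 208 and 186 CPM in WT, so the genotypes overlapped. Nf2, which encodes the tumour suppressor Merlin, had 55.4 and 54.5 CPM in Dnmt3l-KO and 52.3 and 50.1 CPM in WT. Wwc2, a paralogue of the Hippo activator Wwc1, had a log2 fold change of 0.18 ± 0.17 (SE, edgeR).

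Of the 10 coactivator, TEAD and Vgll genes, 8 were tested, and 0 lay at an unadjusted p under 0.05 in edgeR. Vgll3 was the most abundant of the Vgll genes, whose products compete with YAP and TAZ for TEAD factors, with 51.3 and 38.9 FPKM in Dnmt3l-KO and 45.1 and 49.4 FPKM in WT. In CPM it stood at 322 and 234 in Dnmt3l-KO and 296 and 302 in WT. Its Dnmt3l-KO libraries lay on either side of both WT libraries, as in the targets among the members. Vgll4, a corepressor, had 15.2 and 14.2 FPKM in Dnmt3l-KO and 11.7 and 14.4 FPKM in WT. Vgll1 had 0 counts in all libraries and Vgll2 at most 2. Tead2, Tead3 and Tead4 had log2 fold changes of 0.13 ± 0.09, 0.15 ± 0.12 and 0.26 ± 0.28 (SE, edgeR).

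The YAP and TAZ target signature holds 22 genes, 6 of them members. Of the 16 others, 4 had Dnmt3l-KO replicate 1 above and replicate 2 below both WT libraries, against 13.6% of all genes. For the 16 the median difference between the Dnmt3l-KO libraries was -0.06 on the log2 scale, against 0.55 in the 9 members. In edgeR 0 of the 16 passed, and 2 lay at an unadjusted p under 0.05, both higher in Dnmt3l-KO, where 2.34% of all genes lay at that level in that direction. Igfbp3, a carrier protein of insulin-like growth factors, had 43.4 and 49.99 CPM in Dnmt3l-KO and 33.2 and 35.5 CPM in WT, a log2 fold change of 0.44 ± 0.11 (SE; edgeR, unadjusted p = 0.0116, adjusted p = 0.999). Arhgef17, a guanine nucleotide exchange factor, had 165 and 178 CPM in Dnmt3l-KO and 135 and 147 CPM in WT, a log2 fold change of 0.28 ± 0.10 (SE; edgeR, unadjusted p = 0.0381, adjusted p = 0.999). In both genes replicate 2 was the higher of the Dnmt3l-KO libraries, unlike in the members. Asap1, an Arf GTPase-activating protein, had 231 and 189.6 CPM in Dnmt3l-KO and 186 and 176 CPM in WT. Nt5e, the ectonucleotidase CD73, had 8.02 and 13.4 CPM in Dnmt3l-KO and 13.1 and 15.8 CPM in WT, and the kinase gene Nuak2 had 17.3 and 19.1 CPM in Dnmt3l-KO and 20.7 and 19.3 CPM in WT.

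The members were annotated with 39 transcripts, 16 of them curated RefSeq models and 23 predicted ones. Ankrd1, Ctgf and Cyr61 have 1 transcript each, so their values do not depend on how reads were divided among isoforms. Of the 39 transcripts 0 passed in edgeR with transcripts as features (0.00252% of all transcripts tested did), with 2 at an unadjusted p under 0.05 (4.12% of all transcripts), and 0 of the 38 with an adjusted p passed in the authors' deposited table (0.441% of all transcripts there). The first of the 2 was the predicted Yap1 variant X5, with 264 and 485 counts in Dnmt3l-KO and 844 and 832 counts in WT. Its log2 fold change was -1.16 ± 0.42 (SE; edgeR, unadjusted p = 0.0419, adjusted p = 0.9999), and the authors' deposited table gives -0.84 with an adjusted p of 0.414. It held 3.09% and 7.04% of the summed Yap1 FPKM in Dnmt3l-KO and 11.9% and 13.1% in WT. The curated Yap1 variants 1 and 2 together held 67.3% and 38.9% in Dnmt3l-KO and 47.9% and 38.6% in WT, so Dnmt3l-KO replicate 1 stood apart from the other 3 libraries. The predicted variant X2 held 6.65% and 17.3% in Dnmt3l-KO and 20.1% and 22.4% in WT, lowest in the same library.

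The other transcript at that level was the predicted Amotl2 variant X1, with 783 and 610 counts in Dnmt3l-KO and 956 and 902 counts in WT (log2 fold change -0.47 ± 0.16 SE; edgeR, unadjusted p = 0.0385, adjusted p = 0.9999), which held at most 6.56% of the gene's FPKM. The curated Amotl2 model held 75.3% and 81.0% in Dnmt3l-KO and 77.0% and 71.2% in WT. For Axl the 3 curated models held only 2.74% and 6.44% of the FPKM in Dnmt3l-KO and 4.40% and 2.61% in WT, and the predicted variant X5 held most, 42.6% and 37.3% in Dnmt3l-KO and 38.3% and 35.4% in WT. Wwtr1 variant 1, the minor of 2 curated models, held 26.6% and 10.3% in Dnmt3l-KO and 19.8% and 19.0% in WT, so its share stood on either side of WT while the sum of the gene was level. Lats2 was carried by variant A, with 47.5% and 32.5% in Dnmt3l-KO and 42.3% and 45.6% in WT, and by the predicted X1, with 33.7% and 45.2% in Dnmt3l-KO and 39.1% and 40.8% in WT. Lats2 variant B had 1 and 2 counts in Dnmt3l-KO and 12 and 10 counts in WT (edgeR, adjusted p = 0.9999). The separate values of models of the same gene depend on a division of reads that could not be examined. The kit is not stated to mark strand, and an annotated gene on the opposite strand overlaps exons of Ctgf (Gm15270) and of Yap1 (Gm20416), while Gm49361 overlaps Lats2 on the same strand, so reads in those stretches cannot be told apart.

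**Figure D5:**
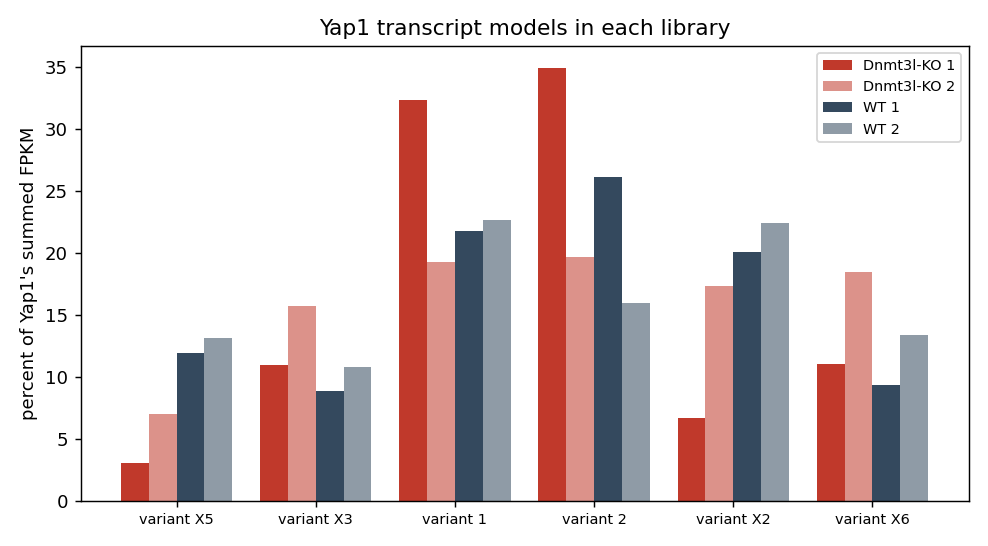
Percent of the summed Yap1 FPKM held by each transcript model with at least 5% in some library, in Dnmt3l-KO (red shades, left) and WT (blue shades, right). Variant X5 is at 3.09% and 7.04% in Dnmt3l-KO and 11.9% and 13.1% in WT, and variants 1 and 2 are highest in Dnmt3l-KO replicate 1.

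The genes whose levels over the 4 libraries were most like the mean of Ankrd1, Ctgf and Cyr61 were Fgd3, Irak2, Snx30, Dennd5b and Phlda1, among 8791 genes with a mean of at least 10 CPM, the members left out. Likeness was the root mean square difference of log2 CPM centred on each gene's mean, which was 0.03 for Fgd3 and 0.07 for Phlda1, against a median of 0.41 over the 8791 genes. Fgd3, which encodes an exchange factor of the GTPase Cdc42, had 81.9 and 39.3 CPM in Dnmt3l-KO and 62.9 and 54.5 CPM in WT. Ctgf itself lay at 0.06 from that mean, while Cyr61 at 0.25 and Ankrd1 at 0.28 were further from it than these 5 genes. For Yap1 the closest were Rps26, Sec24c, Ralb, Tirap and Mfge8, each within 0.01, against a median of 0.13. With 4 libraries many genes match any profile, and nothing about a shared role follows.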

How the data were processed

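RNA from mouse embryonic fibroblasts, in 2 Dnmt3l-KO and 2 WT libraries, was freed of ribosomal RNA, primed at random and amplified by 12 PCR cycles, per the labels' protocols. The submitters' processing notes name build mm10 and DESeq2 (1.8.0), eXpress (1.4.1), TopHat2 (2.0.12) and Cufflinks (2.2.1), without their roles. The deposited table holds, per the file headers, a count and an FPKM value per library for 116415 RefSeq transcripts, and the authors' comparison: a mean signal, a log2 fold change, a score, and raw and adjusted p-values, each deposited per transcript. The sources used here do not say how reads were divided between transcripts.

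Counts were summed per symbol and tested with edgeR 4.0.16 in R 4.3.3 (TMM, filterByExpr, robust quasi-likelihood F-test, Benjamini-Hochberg, threshold 0.05; SE from the F statistic), and the script was checked on simulated counts. Counting errors and floors cover counting error only, since PCR reads are not independent molecules. Alternatives were other scalings and filters, DESeq2 1.42.0, limma 3.58.1 (voom, and log2 of FPKM plus 1 or 0.1), a replicate block, transcripts as features, no Rn45s, and each library left out. The members and lists were chosen with earlier results of these data known. Named genes were the members, up to 6 other genes of each pathway list with the smallest p, the Tead and Vgll genes, the 5 genes closest in profile, and transcripts with at least 5% of a gene's FPKM. Markers, Tgfb1i1, Myc and Lats2 variant B were named after their values were seen. Promoters are RefSeq's for GRCm38.p6, the build of mm10, and exon overlaps GENCODE's. Protein sequences were not analysed here.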

Additional observations from a re-analysis of the deposited data

How the results depend on the processing

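In all 14 alternatives with genes as features, and with transcripts as features, 0 of the 9 members passed the threshold. The count over all genes was 3. It was 31 with DESeq2, 6 with limma on log2(FPKM + 1) and 6 on log2(FPKM + 0.1), 8 with no filter and 0 with a CPM of at least 1 in every library (edgeR), and it ranged from 2 to 6 with a library left out. The causes were not tested. Of 126 member values under alternatives, 109 kept their direction, and Yap1 and Tead1 did so in all 14. The log2 fold change of Ankrd1 turned to -0.060 with limma-voom, -0.059 with the replicate block, and -0.015 and -0.023 with limma on log2(FPKM + 1) and log2(FPKM + 0.1). That of Wwtr1 turned to 0.034 and 0.035 in the same pair of FPKM fits. With each library left out the ranges were -1.02 to 0.80 for Ankrd1, -0.59 to 0.37 for Ctgf, -0.24 to 0.31 for Cyr61, -0.10 to 0.24 for Amotl2, -0.30 to 0.36 for Axl, -0.052 to 0.034 for Wwtr1 and -0.32 to 0.34 for Lats2. The ratio of Dnmt3l-KO to WT in the summed level of Ankrd1, Ctgf and Cyr61 was 1.01 in CPM and 1.04 in FPKM. FPKM set WT replicate 1 below WT replicate 2 by 0.13 at the median gene on the log2 scale. The labels do not say that replicate numbers pair the libraries. Over 14760 genes the difference between replicates had a correlation of 0.10 between the genotypes. The replicate block gave 4 calls over all genes and 0 among the members. A left-out library leaves 1 in its genotype, assumed to vary like the other group. The number of libraries per genotype limits every interval given here.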
